A study of Mus musculus with 18 samples.

Results

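Transcripts of 9 genes of lipoprotein uptake and cholesterol efflux were followed in 10T1/2 cells, taken by gene name from a table of 54532 genes. They were the apolipoproteins *Apoe*, *Apod* and *Apoa1*, the lipase *Lpl*, the receptors *Lrp1*, *Vldlr* and *Scarb1* and the transporters *Abca1* and *Abcg1*. 10T1/2 cells (C3H10T1/2, written CH310T1/2 in the labels) are a multipotent mouse mesenchymal line. WT cells, FOXS1 KO clone 1 and FOXS1 KO clone 2 gave 3 libraries each without stimulation (uninduced) and 3 each after TGF-β1 + DMII. The latter cells had been kept in TGF-β1 at 1 nM during 12 h and in DMII over the next 48 h, where DMII combines insulin and indomethacin with dexamethasone and 3-isobutyl-1-methylxanthine to drive adipogenesis. Each clone grew from a single cell edited by CRISPR with guide pairs against *Foxs1*, so clone and knockout cannot be told apart within a clone. Cells were maintained in serum, a source of lipoproteins, and the methods describe overnight serum starvation before TGF-β1. For DMII the methods list no serum, whereas the paper elsewhere describes it as supplemented growth media. Serum supply during stimulation is therefore not settled, and any part of it in the responses cannot be told apart from stimulation. The comparisons ask whether loss of FOXS1 changed these genes at rest and after profibrotic and adipogenic stimulation. The labels do not say that libraries of a group came from separate cultures, so p-values measure only the spread between these libraries.

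Lipoproteins carry cholesterol and triglyceride in particles held together by apolipoproteins. LPL frees fatty acids from triglyceride-rich particles, and receptors of the LDL receptor family, among them LRP1 and VLDLR, bind apoE on these particles and take them into the cell. In the other direction ABCA1 loads phospholipid and cholesterol onto lipid-poor apoA-I, ABCG1 passes cholesterol to HDL, and SR-B1, the product of *Scarb1*, exchanges cholesteryl ester with HDL. In adipose tissue LPL feeds fat storage, *Lpl* is a known target of PPARγ, and *Abca1*, *Abcg1* and *Apoe* are known targets of the oxysterol receptors LXR.

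Total counts per library ran from 15576685 to 42005596 (median 20178953.5). The 8 fibroblast markers checked had counts in all 18 libraries and summed to between 34000 and 79200 CPM (counts scaled to library size by TMM). *Foxs1* itself was detected at 1.64 to 3.25 CPM in WT libraries, at 23.4 to 56.8 CPM in the libraries labelled clone 1 and at 21.1 to 42.8 CPM in those labelled clone 2. A gene total does not show an edit inside the gene, and these counts rose rather than fell in the libraries labelled FOXS1 KO. The authors had read the disruption of the locus from sequenced genomic DNA. Loss of FOXS1 in both clones had been established by western blot, that is on the protein and not on the transcript. Clone 1 and clone 2 stand below for the libraries so labelled, and each direction rests on those labels. In bulk RNA, fewer cells that express a gene cannot be told apart from less RNA per cell.

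One library stood apart for 2 of the 9 genes. Uninduced clone 1 replicate 3 held transcripts made by hepatocytes, with 1074 counts of *Alb* (10 and 0 in replicates 1 and 2), 111 of *Ttr* (0 and 0) and 61 of *Fga* (0 and 0). The 5 hepatocyte markers summed to 68.5 CPM there and to 0.116 to 1.43 CPM in the other 17 libraries. In that library 15 genes with at least 100 counts lay more than 20-fold above the other 2 libraries of the group, a pattern shown by 0 genes in each other library. *Apoe* had 774 counts in it, against 27 and 16 in replicates 1 and 2, and *Apoa1* had 230, against 0 and 0. How these transcripts came into the library was not tested, and the main results on *Apoe* and *Apoa1* are given with and without it. The plot of liver transcripts shows that *Lrp1* and *Apod* were level across the same 3 libraries.

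**Figure D1:**
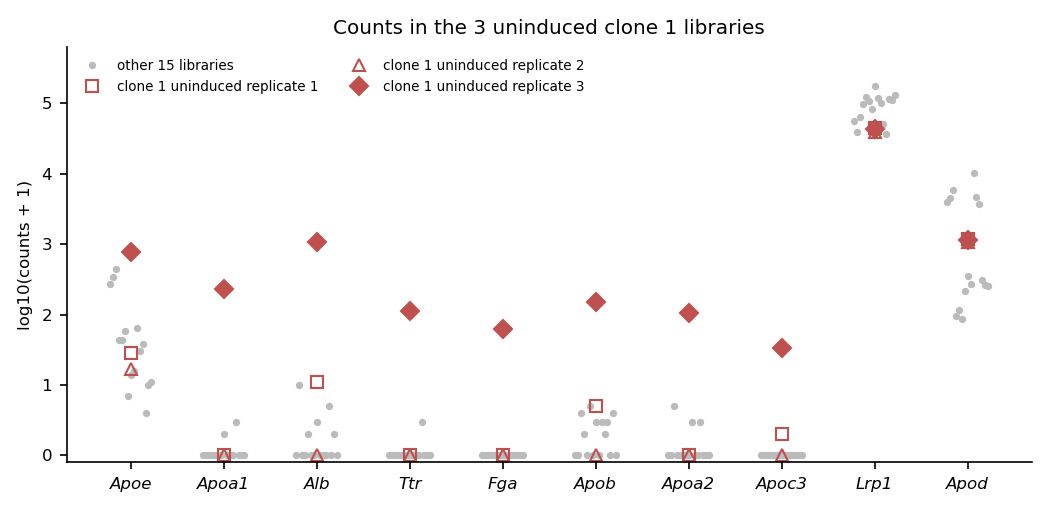
Counts (log10 of counts + 1, vertical axis) of *Apoe*, *Apoa1*, further liver transcripts and, for comparison, *Lrp1* and *Apod*. Symbols mark the 3 uninduced clone 1 libraries, grey points the other 15. Replicate 3 lies far above the other 17 libraries for *Alb*, *Ttr*, *Fga* and *Apoa1* and not for *Lrp1* or *Apod*.

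Of the 9 genes, 7 passed the filter on low counts and were tested with edgeR among 14317 genes, while *Apoa1* and *Abcg1* fell below it. A gene was called a DEG at an adjusted p below 0.05 and a change of more than 2-fold. In uninduced cells, clone 1 differed from WT in 4 of the 7 (1 higher, 3 lower), where 15.1% of all genes tested were DEGs (6.32% higher, 8.73% lower). Uninduced clone 2 differed in 4 (1 higher, 3 lower) beside 15.1% of all genes (5.54% higher, 9.56% lower). In TGF-β1 + DMII stimulated cells, clone 1 differed in 3 (2 higher, 1 lower) beside 19% of all genes (9.42% higher, 9.6% lower), and clone 2 in 3 (3 higher, 0 lower) beside 16.9% (7.95% higher, 8.94% lower). *Vldlr* was higher and *Lpl* and *Abca1* were lower than in WT in both clones uninduced, and *Apod* and *Abca1* were higher in both clones stimulated. The 2 clones are compared with the same WT libraries. Over the 7 genes the median log2 fold change stood at −0.27 in clone 1 and −0.21 in clone 2 uninduced, and 0.15 and 0.54 stimulated, where the medians of all genes lay between −0.017 and −0.007. The value of −0.27 was that of *Apoe* and rested on the library with liver transcripts. Without that library *Apoe* stood at −3.91, and the middle value of the same 7 genes was that of *Abca1*, −1.37.

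The response to TGF-β1 + DMII was called for 4 of the 7 in WT cells (1 higher, 3 lower), beside 19.9% of all genes (6.25% higher, 13.6% lower). It was called for 4 in clone 1 (2 higher, 2 lower), beside 16.7% (5.95% and 10.7%), and for 5 in clone 2 (3 higher, 2 lower), beside 17.7% (6.46% and 11.2%). The difference between a clone's response and that of WT was itself called for 3 genes in clone 1, all positive, beside 8.81% of all genes (5.34% positive, 3.46% negative). In clone 2 it was called for 4 (3 positive, 1 negative), beside 7.85% (4.89% and 2.96%). *Apod*, *Lpl* and *Abca1* were among them in each clone. Where the test asked for evidence of a change beyond 2-fold (glmTreat), the calls lost were those of *Abca1* in uninduced clone 1 and in both stimulated clones, *Vldlr* in uninduced clone 1 and in the responses of WT and clone 2, *Lrp1* in the clone 1 response, *Scarb1* in the clone 2 response and its difference from WT, *Lpl* in the clone 1 difference in response, and *Apoe* in 3 comparisons.

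Without the library holding liver transcripts 8 of the 9 genes passed the filter, *Abcg1* being the addition. The gene *Abcg1* entered through stimulated clone 1, the group where it was high, and it also entered when other single libraries were left out, so its call there is no separate result. Stimulated clone 1 then differed from WT in 5 genes (18.9% of all genes), with *Apoe* added besides *Abcg1*, and stimulated clone 2 in 4 (16.8%), with *Apoe* added. Uninduced clone 1 differed in 5 (14.5%) and uninduced clone 2 in 4 (15.4%). The response was called for 4 in WT (20%), 4 in clone 1 (15.7%) and 6 in clone 2 (17.5%), and its difference from WT for 4 in clone 1 (8.41%) and 4 in clone 2 (7.72%). Between the clones 4 differed uninduced (7.74%) and 3 stimulated (9.78%). Both of these counts include *Abcg1*, to which the same limit applies, and the uninduced one no longer includes *Apoe*.

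**Figure D2:**
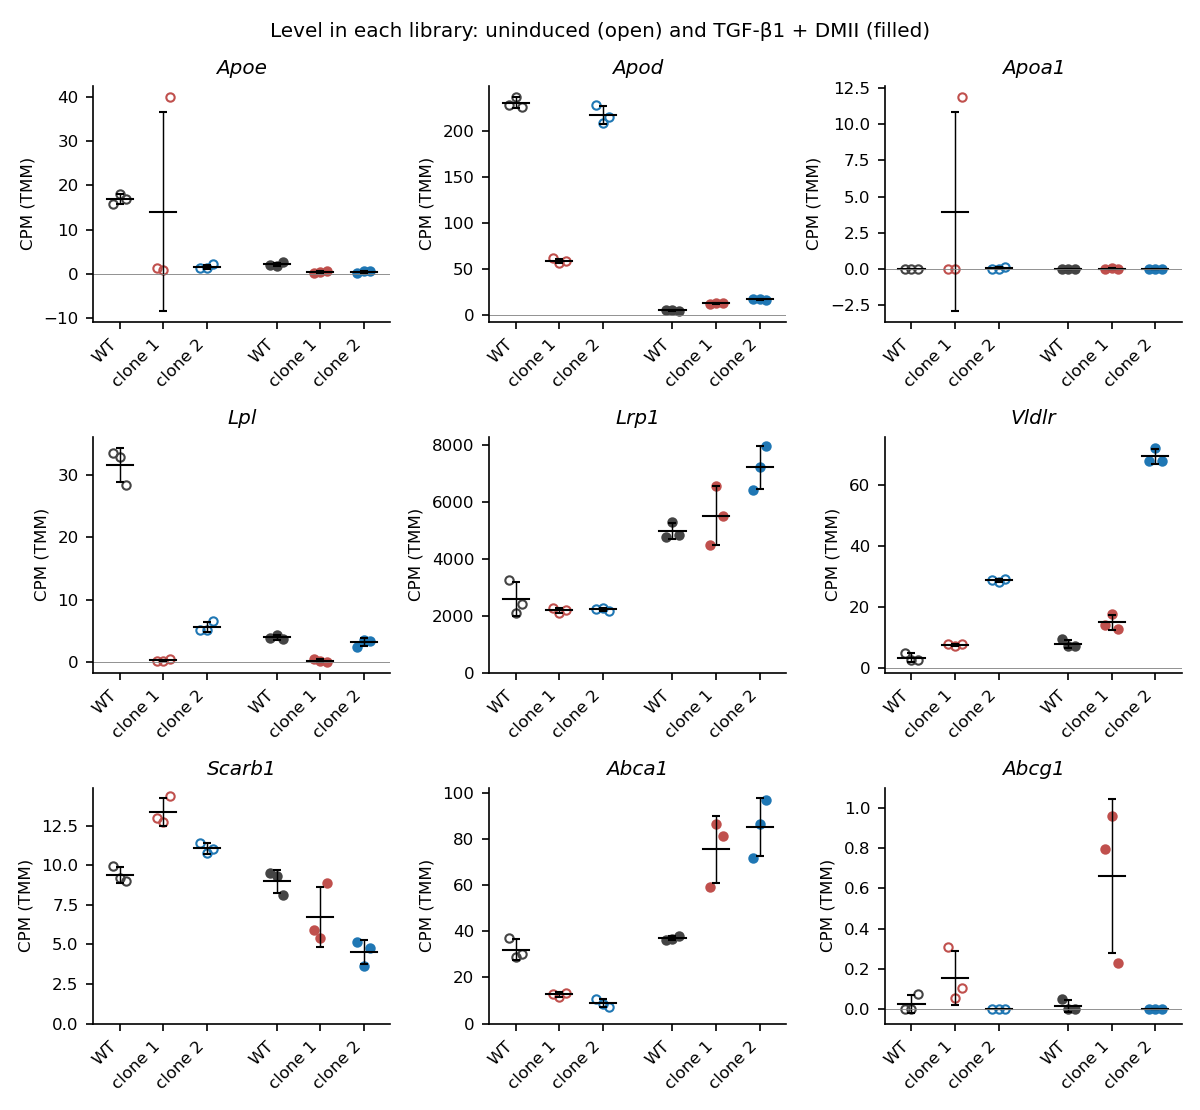
Level of each of the 9 genes in the 18 libraries (CPM scaled by TMM, 1 panel per gene, each with its own axis). Open circles are uninduced and filled circles stimulated libraries, the bar is the group mean and the whiskers are 1 SD (n = 3). *Apod* and *Lpl* were highest in uninduced WT cells, *Vldlr* in stimulated clone 2 and *Abca1* in both stimulated clones.

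*Abca1* lay below WT in both clones before stimulation and above WT after it, *Apoe* is the ligand whose level turned on 1 library, and *Vldlr* was the receptor that was higher in the clones. Their upstream sequences are given for these reasons. They run 250 bases up to the listed transcription start and come from RefSeq on GRCm38.p6, where 6 of the 9 genes had an entry (not *Lpl*, *Abcg1* or *Scarb1*), and the start printed is that of the deposited gene table. Each is written on the strand of its gene, with matches to the motifs searched in capitals.
Abca1, chr4:53159896-53160145, minus strand: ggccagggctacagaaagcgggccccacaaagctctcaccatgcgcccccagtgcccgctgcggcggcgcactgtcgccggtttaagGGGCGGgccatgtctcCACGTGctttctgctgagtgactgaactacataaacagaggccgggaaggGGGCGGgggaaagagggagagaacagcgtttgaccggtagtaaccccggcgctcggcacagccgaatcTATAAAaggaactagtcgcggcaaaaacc
Apoe, chr7:19699189-19699438, minus strand: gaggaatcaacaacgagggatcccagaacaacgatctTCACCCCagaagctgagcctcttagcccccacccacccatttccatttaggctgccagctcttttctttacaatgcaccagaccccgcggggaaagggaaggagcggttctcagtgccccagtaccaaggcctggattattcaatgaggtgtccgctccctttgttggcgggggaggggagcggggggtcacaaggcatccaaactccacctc
Vldlr, chr19:27216234-27216483, plus strand: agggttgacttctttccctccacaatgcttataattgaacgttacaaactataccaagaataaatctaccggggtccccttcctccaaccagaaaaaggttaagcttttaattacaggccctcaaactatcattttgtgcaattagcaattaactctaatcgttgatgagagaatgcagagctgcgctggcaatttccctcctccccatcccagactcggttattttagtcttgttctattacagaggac
In *Abca1* the capitals mark the E-box CACGTG 147 to 142 bases before the start, the TATA motif TATAAA at 29 to 24 and the GC box GGGCGG at 163 to 158 and at 97 to 92. In *Apoe* they mark the sterol element TCACCCC at 213 to 207 bases before the start, and *Vldlr* held none of the motifs. Of 32851 mouse promoters of the same length, 6.02% held CACGTG, 12.4% TATAAA, 32.7% GGGCGG and 4.31% TCACCCC on either strand. The nuclear receptor site AGGTCA (14.0% of promoters), its direct repeats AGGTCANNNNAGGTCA (0.0152%) and AGGTCANAGGTCA (0.0335%), each of which contains AGGTCA, the forkhead core TGTTTAC (3.17%) and the SMAD motif CAGACA (17.1%) had no match in any of the 6 windows. These matches are letters in a window and were not tested for binding. Only the exact letters were searched, so a site that departs from them was not counted. A missing match therefore does not show that a window lacks such a site.

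*Apoe* (chr7:19696109-19699188, minus strand) encodes the apolipoprotein that LDL family receptors recognise. Its level was 15.7, 18.1 and 17.0 CPM in the uninduced WT libraries and 2.05, 1.81 and 2.62 CPM in the stimulated ones. In clone 1 it stood at 1.38, 0.858 and 40.1 CPM uninduced and at 0.320, 0.479 and 0.683 CPM stimulated. In clone 2 it stood at 1.41, 1.28 and 2.15 CPM uninduced and at 0.168, 0.588 and 0.601 CPM stimulated. Apart from the 1 library with liver transcripts, every clone library lay below every uninduced WT library, and stimulated lay below uninduced libraries in each genotype. Stimulated WT and uninduced clone 2 libraries overlapped.

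With all libraries in the model, *Apoe* fell 7.84-fold upon stimulation of WT cells (log2 fold change −2.97 ± 1.03 SE, edgeR adjusted p = 0.0241) and was 10.9-fold lower in uninduced clone 2 than in WT (edgeR adjusted p = 0.0152). On stimulation *Apoe* fell 27.9-fold in clone 1 (edgeR adjusted p = 0.00631), a change that rested on the library with liver transcripts, and by 1.80 ± 1.72 on the log2 scale in clone 2 (0.409). The same model gave −0.27 ± 0.88 for uninduced clone 1 relative to WT (edgeR adjusted p = 0.826) and −2.10 and −2.27 for stimulated clones 1 and 2 (edgeR adjusted p = 0.253 and 0.276). It shares its estimate of the spread over all 6 groups, the library with liver transcripts included. Fits of only the groups compared called *Apoe* lower in stimulated clones 1 and 2 than in WT (edgeR adjusted p = 5.78e-05 and 5.26e-06). They also called its fall in clone 2 (edgeR adjusted p = 0.000533) but not that in clone 1 (0.133). Without the library holding liver transcripts, *Apoe* was 15-fold lower in uninduced clone 1 than in WT (edgeR adjusted p = 2.57e-11) and 10.8-fold lower in clone 2 (2e-12). In stimulated cells it was then 4.29-fold lower in clone 1 (edgeR adjusted p = 3.23e-06) and 4.82-fold lower in clone 2 (4.53e-06). The fall on stimulation was then 7.83-fold in WT, 2.24-fold in clone 1 and 3.50-fold in clone 2 (edgeR adjusted p = 1.54e-11, 0.0184 and 0.000144), and the fall was smaller in clone 1 than in WT by 1.81 on the log2 scale (edgeR adjusted p = 0.00487). The corresponding difference for clone 2, 1.16, did not pass the threshold (edgeR adjusted p = 0.0724). Between the uninduced clones, −3.18 for clone 2 relative to clone 1 became 0.48 without the library (edgeR adjusted p = 0.0293 and 0.308). While that library stayed in, the *Apoe* call in WT was lost on leaving out any of the 3 stimulated WT libraries (edgeR adjusted p = 0.0576 to 0.0741), and that in uninduced clone 2 on leaving out its replicate 1 or 2 (0.0595 and 0.0508).

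*Apoa1* (chr9:46228580-46230466, plus strand), the main apolipoprotein of HDL and the acceptor for ABCA1, had 230 counts in uninduced clone 1 replicate 3 and a total of 3 counts in the other 17 libraries. No count was seen in WT cells under either treatment. Summed over the group, uninduced clone 1 was at least 83.3-fold higher than WT against a floor of 3 counts, but every one of those counts came from replicate 3. Without the filter on low counts, *Apoa1* was not a DEG in any comparison, and its lowest edgeR adjusted p was 0.129.

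*Apod* (chr16:31296192-31314808, minus strand) encodes apolipoprotein D, a lipocalin that binds small lipids and belongs structurally apart from the other apolipoproteins. It measured 229, 238 and 227 CPM in uninduced WT libraries and 4.65, 4.92 and 3.88 CPM in stimulated ones. Clone 1 measured 61.4, 56.7 and 58.4 CPM uninduced and 11.4, 12.9 and 12.5 CPM stimulated. Clone 2 measured 229, 209 and 215 CPM uninduced and 17.2, 16.9 and 15.5 CPM stimulated. Uninduced clone 2 overlapped with WT, uninduced clone 1 lay below both, and after stimulation the order was WT, clone 1, clone 2 from low to high with no overlap.

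*Apod* thus fell on stimulation in every genotype, by 51.5-fold in WT, 4.78-fold in clone 1 and 13.2-fold in clone 2 (edgeR adjusted p = 3.04e-30, 6.18e-22 and 1.6e-27). The fall was smaller by 3.43 ± 0.11 (SE) on the log2 scale in clone 1 and by 1.97 ± 0.11 in clone 2 (edgeR adjusted p = 1.34e-20 and 6.24e-15). In uninduced cells the clones differed. Clone 1 was 3.93-fold lower than WT (edgeR adjusted p = 4.5e-22), whereas clone 2 differed from WT by −0.09 ± 0.05 (0.194), and clone 2 exceeded clone 1 by 3.70-fold (3.66e-21). In stimulated cells *Apod* was 2.74-fold higher than WT in clone 1 and 3.68-fold higher in clone 2 (edgeR adjusted p = 3.02e-14 and 6.83e-17). Each of these calls held when any 1 library was left out. The 10 tested genes nearest to *Apod* had medians of 1.163 and 0.933 in stimulated clones 1 and 2 (ranges −7.811 to 3.77 and −7.811 to 2.164), above those of chromosome 16 (0.123 and 0.38), and a median of 1.083 for the clone 1 difference in response. Genes around *Apod* thus lay on the same side as *Apod* in the median there, whereas their median was 0.263 in uninduced clone 1, where *Apod* was lower.

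*Lpl* (chr8:68880491-68907448, plus strand) encodes lipoprotein lipase. Uninduced WT libraries held 33.4, 32.9 and 28.4 CPM and stimulated ones 3.86, 4.41 and 3.65 CPM. Clone 1 was near zero throughout, with 4, 4 and 8 counts uninduced and 8, 6 and 0 counts stimulated, or at most 0.426 CPM. Clone 2 lay between, with 5.06, 5.14 and 6.55 CPM uninduced and 2.41, 3.596 and 3.43 CPM stimulated. All groups were separate from one another except the 2 groups of clone 1.

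Relative to WT, uninduced *Lpl* was 111-fold lower in clone 1 (log2 fold change −6.80 ± 0.29 SE, edgeR adjusted p = 3.32e-18) and 5.71-fold lower in clone 2 (−2.51 ± 0.19, 1.55e-12). After stimulation it stayed 18.7-fold lower in clone 1 (edgeR adjusted p = 1.04e-11), and in clone 2 the difference from WT was −0.35 ± 0.23 (0.206). Clone 2 was higher than clone 1 by 19.4-fold uninduced and 14.7-fold stimulated (edgeR adjusted p = 6.14e-12 and 6.06e-10). WT cells lost *Lpl* 7.92-fold upon stimulation (edgeR adjusted p = 5.05e-14), while the change was −0.42 ± 0.60 in clone 1 and −0.82 ± 0.22 in clone 2, below 2-fold in each. The difference in response was 2.57 ± 0.68 for clone 1 and 2.17 ± 0.30 for clone 2 (edgeR adjusted p = 0.00367 and 8.11e-07). For clone 1 it rested on few counts, and *Lpl* lost this call (1.83, edgeR adjusted p = 0.11) when stimulated clone 1 replicate 1 was left out. Over the 10 tested genes nearest to *Lpl* the median log2 fold change came to 0.305 in uninduced clone 1 (range −0.59 to 1.30).

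Endothelial cells bind but hardly make LPL, and their summed markers were highest in uninduced WT cells. So were *Lpl* and, apart from the library with liver transcripts, *Apoe*. The 4 endothelial markers summed to 5.03 to 7.92 CPM in uninduced WT cells and to at most 0.828 CPM in any other group. *Tek* made up most of this, with 108, 94 and 171 counts in the uninduced WT libraries, where *Cdh5* had 0, 0 and 1 and *Kdr* had none. The endothelial sum was alike in uninduced clone 1 (0.359 to 0.828 CPM) and clone 2 (0.531 to 0.758 CPM), between which *Lpl* differed 19.4-fold. The part of these markers in the *Lpl* and *Apoe* results was not tested. Macrophages are rich in *Apoe* and *Lpl*, and in uninduced cells the 8 macrophage markers stood the other way, at 4.72 to 9.26 CPM in WT, 49.0 to 53.4 in clone 1 and 30.2 to 32.8 in clone 2. In stimulated cells they stood at 4.01 to 4.75 CPM in WT, 15.5 to 21.6 in clone 1 and 14.3 to 16.1 in clone 2, below uninduced cells in both clones as *Apoe* was, and their part in these values was not tested. This sum was almost wholly *Cd14* and *Lyz2*, and *Ptprc* had no count in any library.

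**Figure D3:**
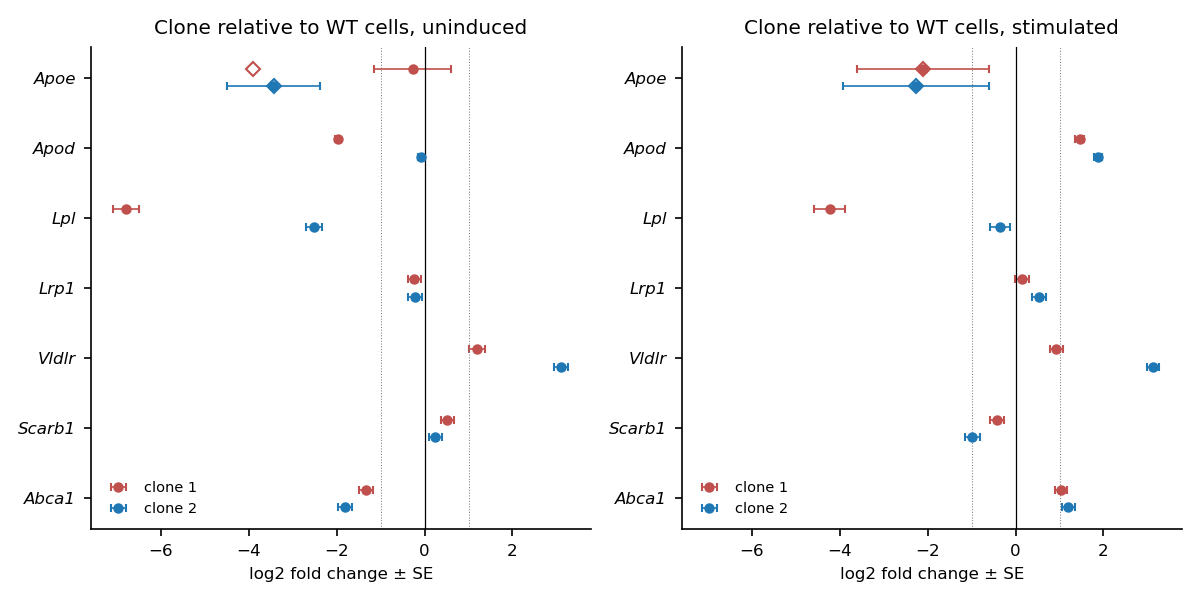
Log2 fold change (± SE) of each tested gene in clone 1 (red) and clone 2 (blue) relative to WT cells, uninduced (left) and stimulated (right), with dotted lines at the 2-fold threshold. Diamonds give *Apoe* without uninduced clone 1 replicate 3, and all error bars come from the fit to all libraries. *Lpl* and *Abca1* lay left of the threshold in both uninduced clones, and *Abca1* and *Apod* lay right of it in both stimulated clones.

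*Lrp1* (chr10:127538161-127621148, minus strand), a very large endocytic receptor, was the most abundant of the 9 genes. Per length it led in every group, with group means from 124 FPKM in uninduced clone 1 to 406 FPKM in stimulated clone 2. Its level was 3237, 2082 and 2412 CPM in uninduced WT cells, 2266, 2093 and 2210 in clone 1 and 2243, 2264 and 2159 in clone 2. Stimulated libraries held 4775, 5287 and 4833 CPM in WT, 4484, 6533 and 5498 in clone 1 and 6420, 7224 and 7952 in clone 2. Every stimulated library exceeded every uninduced one, and among genotypes only stimulated clone 2 lay wholly above WT.

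*Lrp1* rose on stimulation by 2.51-fold in clone 1 and 3.24-fold in clone 2 (edgeR adjusted p = 7.22e-06 and 6.59e-07). The rise in WT was 1.93-fold, just under the threshold (log2 fold change 0.95 ± 0.16 SE, edgeR adjusted p = 0.000133), and passed it at 1.15 without uninduced WT replicate 1. Relative to WT, *Lrp1* was not a DEG in either clone under either treatment, with the largest difference in stimulated clone 2 (0.54 ± 0.15, edgeR adjusted p = 0.00943). The difference in response was 0.38 ± 0.22 for clone 1 and 0.75 ± 0.22 for clone 2 (edgeR adjusted p = 0.214 and 0.0184), below 2-fold.

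*Vldlr* (chr19:27216484-27254231, plus strand), the receptor for triglyceride-rich particles, was raised in both clones and most in clone 2. WT libraries held 5.07, 2.57 and 2.71 CPM uninduced and 9.49, 7.30 and 7.17 CPM stimulated. Clone 1 held 7.84, 7.35 and 7.87 CPM uninduced and 14.3, 17.9 and 12.9 CPM stimulated. Clone 2 held 29.0, 28.3 and 29.4 CPM uninduced and 68.1, 72.4 and 68.1 CPM stimulated. At each treatment all groups were separate, in the order WT, clone 1, clone 2 from low to high, and uninduced clone 1 overlapped with stimulated WT.

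In uninduced cells *Vldlr* was 2.29-fold higher than WT in clone 1 and 8.59-fold higher in clone 2 (edgeR adjusted p = 4.52e-06 and 1.05e-14). In stimulated cells it was 8.73-fold higher in clone 2 (edgeR adjusted p = 4.43e-16) and 1.90-fold higher in clone 1 (6.89e-06), where it passed the 2-fold threshold without stimulated clone 1 replicate 3 (log2 fold change 1.04) or stimulated WT replicate 1 (1.07). Clone 2 exceeded clone 1 by 3.75-fold uninduced and 4.6-fold stimulated (edgeR adjusted p = 4.79e-11 and 4.51e-13). The response to stimulation was alike in size, 2.37-fold in WT, 1.97-fold in clone 1 and 2.41-fold in clone 2 (edgeR adjusted p = 1.34e-06, 4.81e-06 and 3.27e-09). That of clone 1 passed the threshold without its stimulated replicate 1 (1.03) or 3 (1.10). The differences in response were −0.27 ± 0.24 and 0.02 ± 0.24 for clones 1 and 2 (edgeR adjusted p = 0.435 and 0.97), which leaves room for a difference of either sign. The 10 tested genes nearest to *Vldlr* centred on a log2 fold change of 0.018 in uninduced and −0.11 in stimulated clone 2.

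*Scarb1* (chr5:125277087-125341094, minus strand), the HDL receptor, differed from WT by less than 2-fold under both treatments. Its response to stimulation differed from that of WT beyond 2-fold in clone 2 and just under 2-fold in clone 1. It measured 9.96, 9.18 and 8.995 CPM in uninduced WT libraries and 9.49, 9.33 and 8.12 CPM in stimulated ones, which overlapped. In clone 1 it measured 13.0, 12.7 and 14.3 CPM uninduced and 5.91, 5.38 and 8.88 CPM stimulated. In clone 2 it measured 11.4, 10.8 and 11.01 CPM uninduced and 5.16, 3.66 and 4.75 CPM stimulated. Every uninduced clone library lay above WT and every stimulated clone 2 library below it, while stimulated clone 1 replicate 3 fell among the WT values.

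In WT cells no change of *Scarb1* on stimulation was detected (log2 fold change −0.06 ± 0.15 SE, edgeR adjusted p = 0.755). It fell 2.44-fold in clone 2 (edgeR adjusted p = 9.12e-08), and in clone 1 the fall was 1.99-fold (2.35e-06), reaching the threshold without uninduced clone 1 replicate 1 (−1.01) or 2 (−1.03) or stimulated clone 1 replicate 3 (−1.22). The difference in response was −1.22 ± 0.23 for clone 2 (edgeR adjusted p = 7.47e-05) and −0.93 ± 0.22 for clone 1 (0.00113). The latter passed 2-fold without stimulated clone 1 replicate 3 (−1.18) or stimulated WT replicate 3 (−1.003). Against WT, *Scarb1* was 1.43-fold higher in uninduced clone 1 (edgeR adjusted p = 0.00495) and 1.18-fold higher in clone 2 (0.178). In stimulated cells it was 1.34-fold and 1.97-fold lower (edgeR adjusted p = 0.0219 and 1.08e-05), none of them a DEG. The value for stimulated clone 2 passed 2-fold without its replicate 1 (−1.09) or 3 (−1.01) or WT replicate 3 (−1.05), and also with no filter on low counts (−1.01).

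**Figure D4:**
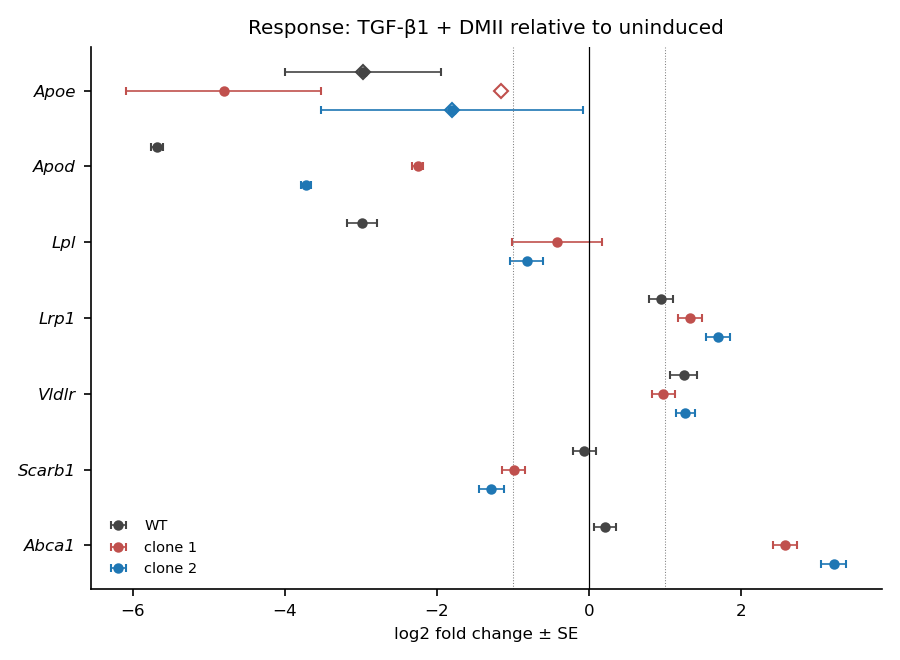
Log2 fold change (± SE) of each tested gene on stimulation with TGF-β1 + DMII, in WT (black), clone 1 (red) and clone 2 (blue), with dotted lines at the 2-fold threshold. Diamonds give *Apoe* without uninduced clone 1 replicate 3, and all error bars come from the fit to all libraries. *Abca1* lay near 0 in WT and between 2.58 and 3.22 in the clones, *Apod* fell least in clone 1, and the 3 genotypes were close together for *Vldlr*.

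*Abca1* (chr4:53030787-53159895, minus strand), the transporter that starts HDL assembly, changed sign between treatments. Uninduced WT libraries held 37.2, 28.9 and 30.1 CPM and stimulated ones 36.4, 36.6 and 38.0 CPM, which overlapped. Clone 1 held 13.1, 11.6 and 13.3 CPM uninduced and 59.0, 86.2 and 81.1 CPM stimulated. Clone 2 held 10.8, 8.46 and 7.30 CPM uninduced and 71.8, 86.2 and 96.8 CPM stimulated. All uninduced clone libraries lay below all WT libraries, all stimulated clone libraries lay above them, and the stimulated clones overlapped with each other.

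In uninduced cells *Abca1* was 2.52-fold lower than WT in clone 1 and 3.50-fold lower in clone 2 (edgeR adjusted p = 2.59e-06 and 5.66e-08). On stimulation it rose 5.96-fold in clone 1 and 9.30-fold in clone 2 (edgeR adjusted p = 2.46e-10 and 1.24e-11), against 1.16-fold in WT (0.233). The difference in response was 2.36 ± 0.22 (SE, log2) for clone 1 and 3.01 ± 0.22 for clone 2 (edgeR adjusted p = 1.54e-07 and 7.88e-09). Stimulated *Abca1* was 2.04-fold higher than WT in clone 1 and 2.29-fold higher in clone 2 (edgeR adjusted p = 7.8e-06 and 1.61e-06). In clone 1 this lay at the threshold, and leaving out stimulated clone 1 replicate 2 or 3 brought the log2 fold change to 0.92 or 0.99. Between the clones it differed by −0.48 ± 0.18 uninduced and 0.17 ± 0.14 stimulated (edgeR adjusted p = 0.0432 and 0.363). The 10 tested genes nearest to *Abca1* had medians of −0.108 and 0.116 in stimulated clones 1 and 2.

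*Abcg1* (chr17:31057698-31115777, plus strand in the deposited table) was at the edge of detection. Its counts were 0, 0 and 2 in uninduced WT libraries, 1, 0 and 0 in stimulated WT, 6, 1 and 2 in uninduced clone 1, 15, 26 and 5 in stimulated clone 1, and 0 in all 6 libraries of clone 2, which allows up to 0.0354 CPM uninduced and 0.0603 CPM stimulated. Counts of *Abcg1* in the stimulated clone 1 libraries thus exceeded those of all other groups in 2 of 3 libraries. Pooled over the group, stimulated clone 1 was 44.6-fold above stimulated WT (exact 95% interval 7.61 to 1800, counting error only), 4.33-fold above uninduced clone 1 (2.09 to 10.1) and at least 11.2-fold above stimulated clone 2. Tested without the filter on low counts, *Abcg1* was higher in stimulated clone 1 than in WT (edgeR adjusted p = 0.00177) and lower in clone 2 than in clone 1 under both treatments (0.0211 uninduced and 0.000734 stimulated). Its other comparisons gave edgeR adjusted p of 0.17 or more.

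Between the clones, 4 of the 7 tested genes differed uninduced (3 higher and 1 lower in clone 2) and 2 stimulated, both higher in clone 2. Over all genes 8.67% differed between the uninduced clones (3.78% higher, 4.89% lower) and 9.98% between the stimulated clones (4.48% higher, 5.5% lower). The lower one was *Apoe*, a call that was lost without the library holding liver transcripts. *Lpl* and *Vldlr* were higher in clone 2 under both treatments, and *Apod* in uninduced cells. The levels per length put *Lrp1* first and *Apod* next in all uninduced groups (22.8 to 89.7 FPKM for *Apod*), whereas *Abca1* took the place after *Lrp1* in all stimulated groups, with 3.57 FPKM in WT, 7.28 in clone 1 and 8.20 in clone 2. The order of the 9 genes in each group was the same with DESeq2 size factors.

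Across the 18 libraries, which share their 6 groups and their depths, log2 CPM of *Abca1* and *Lrp1* correlated with r = 0.898, *Scarb1* with *Lrp1* at −0.839 and *Scarb1* with *Abca1* at −0.835. The genes whose pattern was most like each member among 10059 genes were *Mpzl1* (r = 0.987), *Pdcd4* (0.977) and *Txndc16* (0.971) for *Apod*. They were *Ski* (0.979), *Arntl* (0.979) and *Tmem2* (0.975) for *Lrp1*, *Pi16* (0.975), *Zcchc24* (0.973) and *Pde4b* (0.973) for *Abca1*, and *Inf2* (0.973), *Ero1l* (0.969) and *Azin1* (0.966) for *Vldlr*. For *Lpl* they were *Arhgef25* (0.958), *Emilin2* (0.957) and *Slc25a13* (0.956), for *Scarb1* *Uhrf1* (0.957), *Aspn* (0.943) and *Asph* (0.921), and for *Apoe* *Lsm10*, *Smad5* (each 0.881) and *Rchy1* (0.878). These are descriptions over libraries of 6 groups, with no test. Those for *Apoe* include the library with liver transcripts and were not computed without it. With a prior count of 0.5 in place of 2 the leading gene for *Lpl* became *Pxn* (0.953) and that for *Apoe* became *Smad5* (0.89).

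The wider pathway was read from 9 lists of 96 further genes, of which 70 were tested. In stimulated cells 17 were higher and 6 lower than WT in clone 1, and 16 were higher and 10 lower in clone 2. In both clones 9 were higher and 5 lower, and 1 went in opposite directions. The clones share their WT libraries, and the share of all genes called in both was not computed. These joint counts are therefore no result about the lists. Over all genes 9.42% were higher and 9.6% lower in clone 1, and 7.95% and 8.94% in clone 2. Over the 70 the median log2 fold change stood at 0.353 in clone 1 and 0.275 in clone 2, beside −0.015 and −0.01 over all genes. Uninduced cells were more even, with 11 higher and 9 lower in clone 1 and 9 higher and 11 lower in clone 2, beside 6.32% higher and 8.73% lower, and 5.54% and 9.56%, of all genes. In WT cells stimulation raised 4 and lowered 18 of the 70, beside 6.25% and 13.6% of all genes.

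Among partners of LPL (4 tested of 11), *Angptl4*, a secreted inhibitor of the enzyme, was at 156 to 169 CPM in stimulated WT libraries, 9.90 to 12.9 in clone 1 and 8.52 to 10.1 in clone 2. Relative to WT this was −3.82 (clone 1) and −4.10 (clone 2) on the log2 scale (edgeR adjusted p = 8.78e-25 and 7.15e-25), and uninduced levels were 1.46 ± 0.34 (SD, n = 3) and 1.43 ± 0.22 CPM in the clones against 76.6 ± 3.80 in WT. Among scavenger receptors other than *Scarb1* (6 tested of 10), *Scara5*, a ferritin receptor, rose over WT by 3.02 and 1.68 in stimulated clones 1 and 2 (edgeR adjusted p = 5.08e-29 and 3.14e-23).

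Counts for single lists are read beside the 19% of all genes that were DEGs in stimulated clone 1 and the 16.9% in clone 2, and lists of this size give no more than a description. The other ABC transporters of lipids (8 tested of 12) counted 4 higher and 0 lower in stimulated clone 1 and 2 higher and 2 lower in clone 2, and *Abca8b* (1.84 and 2.39) and *Abca9* (2.25 and 1.24) were higher in both (edgeR adjusted p = 2.6e-09, 7.73e-12, 1.53e-13 and 4.87e-07). Of the LXR and PPAR receptors and LXR targets (10 tested of 11), 3 were higher and 2 lower in stimulated clone 1, and 2 higher and 1 lower in clone 2. *Pparg*, the master regulator of adipocytes, was at 3.92 to 4.597 CPM in stimulated WT, 33.3 to 36.2 in clone 1 and 17.4 to 22.03 in clone 2, with log2 fold changes of 3.07 and 2.26 (edgeR adjusted p = 1.22e-20 and 7.49e-17). *Rxra*, its partner and that of LXR, rose by 2.09 and 1.66 over WT (8.75e-25 and 2.36e-22).

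The counts of the remaining lists stand beside the same 19% and 16.9% of all genes. Among 12 tested genes of lysosomal and intracellular cholesterol traffic, 3 were higher and 1 lower in stimulated clone 1 and 5 higher and 1 lower in clone 2. *Gramd1b*, which carries cholesterol from the plasma membrane to the endoplasmic reticulum, was higher by 1.30 and 2.09, and *Stard3*, of late endosomes, by 1.12 and 1.09 (edgeR adjusted p = 8.98e-07, 6.11e-11, 5.59e-13 and 1.44e-12). The SREBP2 list (8 tested of 8), which makes and senses sterol, had 1 higher in stimulated clone 1 and 3 in clone 2 with 0 lower, and the LDL receptor family and adaptors (13 tested of 15) had 1 higher and 1 lower in clone 1 and 1 higher and 2 lower in clone 2. HDL maturation genes (6 of 8) counted 1 higher and 1 lower, and 1 higher and 2 lower. Of the other apolipoproteins 3 of 7 were tested, with 1 higher in stimulated clone 1 and none called in clone 2.

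The sum of the adipocyte markers was also higher in both stimulated clones than in stimulated WT cells. The 7 markers summed to 0.293 to 1.22 CPM in stimulated WT, 30.5 to 43.0 CPM in clone 1 and 2.71 to 4.64 CPM in clone 2. Uninduced, they summed to 1.68 to 2.1 CPM in WT, 1.18 to 1.86 CPM in clone 1 and 2.04 to 2.39 CPM in clone 2. The contrast for clone 2 thus came with a lower sum in stimulated than in uninduced WT cells. Only 4 of the 7 were tested, and 4 were called higher than WT in stimulated clone 1 and 2 in clone 2. *Plin1*, *Cidec* and *Fabp4* made up most of the sum in clone 1, while *Lep* and *Retn* had no count in any library and *Adipoq* had 3, 10 and 2 counts in stimulated clone 1. *Lpl*, which adipocytes express strongly, was at 8, 6 and 0 counts in the same libraries. The part of these marker levels in the *Abca1*, *Vldlr* and *Pparg* values was not tested.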

How the data were processed

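The authors sequenced RNA of 10T1/2 cells in 18 libraries (Illumina NovaSeq, 150 bp paired-end reads), mapped reads to GRCm38 (mm10) with HISAT2 and deposited raw counts per gene. How reads were counted, with which annotation and whether by strand, is not given in the sources used here. These counts were analysed with edgeR 4.0.16 in R 4.3.3 (limma 3.58.1). Genes passing filterByExpr (minimum count 10) were scaled with TMM and fitted with 1 mean per group over all 6 groups (glmQLFit, robust; glmQLFTest), with Benjamini-Hochberg adjustment over the 14317 genes tested. DEGs had an adjusted p under 0.05 with a log2 fold change beyond 1 in either direction. The 11 comparisons covered each genotype's response, each clone against WT, clone 2 against clone 1, and the differences in response. CPM are TMM-scaled, and FPKM divides them by the gene length in the table. Libraries of 15576685 to 42005596 counts make 3 counts over a group worth 0.0354 to 0.0603 CPM, for counting error only. Alternatives were DESeq2 1.42.0, its size factors, other filters, fits of the groups compared, a replicate block, other fold thresholds and libraries left out in turn. Dropping uninduced clone 1 replicate 3 from comparisons without that group was chosen after seeing the data. Replicates differed by more than sampling noise (chi-square per degree of freedom 3.13 to 14.6). The members and lists were chosen with earlier results of these data known. Beyond the 9 genes and *Foxs1*, pathway genes are named when called the same way in both stimulated clones (mean of at least 5 CPM, at most 4 per list), and genes of similar pattern are the 3 with the highest Pearson r. The counts in *Apoa1* and the markers named beside a result were singled out after their values were seen. Of the 9 genes, 8 had the coordinates of GENCODE M21 (not *Abcg1*), and none shared exonic bases with another gene. Before use, the scripts were tested on simulated data. Figures were drawn with Python 3.11.15 and matplotlib 3.10.9.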

Additional observations from a re-analysis of the deposited data

Results flagged for a closer look

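The response to TGF-β1 + DMII differed from that of WT, by a test of the difference itself, for 3 of the 7 genes tested in clone 1. In clone 2 it differed for 4 of them. Over all genes tested the shares were 8.81% in clone 1 and 7.85% in clone 2. For *Apod* the difference was 3.43 in clone 1 and 1.97 in clone 2 (log2, edgeR adjusted p = 1.34e-20 and 6.24e-15), where all genotypes fell and WT fell most. *Lpl* differed by 2.57 and 2.17 (edgeR adjusted p = 0.00367 and 8.11e-07), with a fall beyond 2-fold in WT alone. Uninduced clone 1 held only 4, 4 and 8 counts of *Lpl*, so a fall of the size in WT could not have been seen there. The clone 1 call was lost with glmTreat (edgeR adjusted p = 0.0803) and without stimulated clone 1 replicate 1 (0.11). For *Abca1* it was 2.36 and 3.01 (edgeR adjusted p = 1.54e-07 and 7.88e-09), with 6 of 6 stimulated clone libraries above all uninduced libraries of the same clone. *Scarb1* differed by −1.22 in clone 2 (edgeR adjusted p = 7.47e-05), a call lost with glmTreat (0.828). In clone 1 its difference of −0.93 lay just under the threshold (edgeR adjusted p = 0.00113). Both differences share the WT libraries. Groups of 3 were not tested for outlying samples.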

How the results depend on the processing

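Counts of members called moved by more than 1.5 times under few settings. Testing the fold against the 2-fold threshold (glmTreat) left 2 in the WT response, 3 in the clone 2 response and 2 in uninduced clone 1 against WT. The shares of all genes called were then 12.7%, 10.6% and 8.93%. With no fold threshold 5 were called in each stimulated clone against WT, beside 58.9% of all genes in clone 1 and 56% in clone 2. Between the stimulated clones 4 were then called, beside 45.4% of all genes. Leaving out 1 library in turn gave 2 to 5 for stimulated clone 1 against WT, where the highest count came without stimulated WT replicate 1 or uninduced clone 1 replicate 3, and 4 to 7 for the clone 1 response, where it came without stimulated clone 1 replicate 3. The fits behind these highest counts tested 8 of the 9 genes, *Abcg1* among them. Over all genes they called 18%, 18.9% and 15.8%, in the order named. Of 1199 values of single genes under alternatives, 1122 kept direction and call, 35 gained and 28 lost the call and 14 changed sign.

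The sign changes concerned values near 0 or *Apoe*. Leaving out libraries took *Apoe* from −3.91 to 0.29 in uninduced clone 1 against WT, from −3.72 to 0.48 between uninduced clones, from −0.45 to 0.25 between stimulated clones and from −2.39 to 1.81 in the clone 1 difference in response. It took *Lpl* from −1.14 to 0.16 in the clone 1 response, *Lrp1* from −0.007 to 0.049 between uninduced clones, *Scarb1* from −0.087 to 0.026 in the WT response, and *Vldlr* from −0.32 to 0.18 in the clone 2 difference in response, which was −0.047 with no filter. DESeq2 gave no adjusted p for *Apoe* in any of the 11 comparisons. The replicate numbers did not pair the samples (27 correlations of same-numbered deviations, −0.039 to 0.05), and a replicate block moved only *Apoe* between uninduced clones (−2.40, edgeR adjusted p = 0.0768) across the threshold. The cause of these shifts was not tested. Groups of 3 libraries and low counts limit *Apoe*, *Abcg1*, *Apoa1* and clone 1 *Lpl*.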

Other observations

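Further apolipoprotein genes of the liver were also counted in uninduced clone 1 replicate 3. It held 150 counts of *Apob*, 104 of *Apoa2*, 64 of *Apoa4*, 54 of *Apoc1*, 32 of *Apoc3* and 31 of *Apoa5*. Replicates 1 and 2 held 4 and 0, 0 and 0, 1 and 0, 4 and 5, 1 and 0, and 0 and 0 counts of these genes. *Clu*, an apolipoprotein made by many cell types, was level at 3123, 3191 and 3110 counts in replicates 1, 2 and 3.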
